A study of Homo sapiens with 6 samples.

Results

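The E2F transcription factors and the cyclin E genes form the control point at which a dividing cell commits to copying its DNA. The genes examined here were *E2F1*, *E2F2*, *E2F3*, *E2F4*, *E2F5*, *E2F6*, *E2F7* and *E2F8*, with *CCNE1* and *CCNE2*, which encode cyclin E1 and cyclin E2. Their NCBI Gene identifiers are, in that order, 1869, 1870, 1871, 1874, 1875, 1876, 144455, 79733, 898 and 9134. They were taken from the count table by gene symbol, 10 of its 46427 genes, and the expression filter of edgeR left all 10 among 18366 tested genes. Their RNA was compared between parental HCT116 cells (*ZK3*-WT), a human colorectal carcinoma line with wild-type *ZKSCAN3*, and *ZK3*-KO cells, in which CRISPR/Cas9 removed the start codon of *ZKSCAN3* from both alleles. Both lines were grown in DMEM with fetal bovine serum and no further agent, and each gave 3 biological replicates of stranded, polyadenylated RNA libraries. The *ZK3*-KO line came from puromycin selection and single-cell cloning after transfection, so a difference between the groups is a difference between 1 cloned line and its uncloned parent, and the effects of the knockout and of cloning cannot be told apart.

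E2F1 to E2F6 bind DNA as dimers with a DP protein, and the activators among them switch on genes for DNA synthesis. In resting cells E2F1 to E2F5 are held back by RB1 and its relatives RBL1 and RBL2, the pocket proteins, until cyclin-dependent kinases phosphorylate these. Cyclin E activates CDK2, which phosphorylates RB1 further, and because *CCNE1*, *CCNE2*, *E2F1* and *E2F2* are themselves E2F targets the circuit feeds itself. E2F1, E2F2 and E2F3 are known as activators, E2F4 and E2F5 as pocket-protein-bound repressors, E2F6 as a repressor that works with Polycomb proteins, and E2F7 and E2F8 as atypical repressors that are induced by E2F and then shut its targets down. Cyclin E is often overproduced in colorectal carcinoma, where *FBXW7*, which directs its destruction, is a recurrent target of mutation.

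With all 6 libraries, edgeR's quasi-likelihood test called 0 of the 10 genes at a false discovery rate (FDR) threshold of 0.05, where 2.05% of all tested genes were called, and 1 gene (*CCNE1*) had an unadjusted p under 0.05, where 18.4% of tested genes did. DESeq2 called 1 of the 10, again *CCNE1*, where it called 8.2% of tested genes. *CCNE1* was the only member whose libraries did not overlap between the genotypes, all 3 *ZK3*-KO libraries lying above all *ZK3*-WT libraries, an arrangement shared by 12.7% of tested genes. *CCNE2*, *E2F2*, *E2F8* and *E2F1* had a different arrangement. Replicates 1 and 2 of *ZK3*-KO lay above every *ZK3*-WT library and replicate 3 lay below every one of them. That arrangement, described after it was seen, held for 4 of the 10 members and for 6.79% of tested genes. *E2F3*, *E2F4*, *E2F5*, *E2F6* and *E2F7* had log2 fold changes between -0.22 and 0.02.

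The libraries held 60827060 to 68635701 counted reads in *ZK3*-WT and 63581292 to 69739215 in *ZK3*-KO. *ZK3*-KO replicate 3 stood apart, with a correlation of 0.963 and 0.950 to its group's replicates 1 and 2 across genes, against 0.983 to 0.989 among *ZK3*-WT libraries and 0.985 between *ZK3*-KO replicates 1 and 2. To *ZK3*-WT replicates 1, 2 and 3 the correlation of *ZK3*-KO replicate 3 was 0.952, 0.952 and 0.965, the last above both values within its own group. Results are therefore given with and without *ZK3*-KO replicate 3. Levels per library below are in CPM, read counts scaled to the TMM-normalized library size, in the order of replicates 1, 2 and 3. *ZKSCAN3* had levels of 28.1, 23.4 and 19.8 CPM in the *ZK3*-WT libraries against 25.4, 24.9 and 13.6 CPM in the *ZK3*-KO libraries, so its reads did not separate the groups, and reads on a transcript that lacks only its start codon do not test the knockout. The epithelial markers *EPCAM*, *CDH1*, *KRT8*, *KRT18* and *KRT19* were all present, with a summed level of 2935 to 3728 CPM in *ZK3*-WT and 2722 to 5425 CPM in *ZK3*-KO, the highest in replicate 3. The leukocyte markers *PTPRC* and *CD3E* were at 0 in every library. Of the fibroblast markers, *COL1A1* lay between 32.2 and 98.8 CPM while *DCN* was at 0 in 5 of the 6 libraries, and the endothelial markers *PECAM1* and *VWF* summed to at most 1.86 CPM. In bulk RNA, fewer cells at a stage of the cycle and less of a transcript per cell cannot be told apart, and this holds for every gene below.

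To show start sites with and without the letters that E2F is known to bind, promoter sequence is printed for the activators and for *E2F4* and *CCNE1* as members in which the letters searched for were not found. The sequences are the 120 bases before the RefSeq start site, located in GRCh37, and are read 5′ to 3′ on the strand of the gene. Capitals mark the E2F motif on either strand, spelled TTTCCCGC, TTTCGCGC, TTTGCCGC or TTTGGCGC, and in *E2F3* also 1 match nearer the start that lacks the first T of its form. The windows are chr20:32274192-32274311 on the minus strand for *E2F1*, chr1:23857726-23857845 on the minus strand for *E2F2*, chr6:20401990-20402109 on the plus strand for *E2F3*, chr16:67225938-67226057 on the plus strand for *E2F4*, and chr19:30302778-30302897 on the plus strand for *CCNE1*.
E2F1: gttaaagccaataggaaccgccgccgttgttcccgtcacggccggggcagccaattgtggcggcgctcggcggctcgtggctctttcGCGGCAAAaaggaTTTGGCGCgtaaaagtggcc
E2F2: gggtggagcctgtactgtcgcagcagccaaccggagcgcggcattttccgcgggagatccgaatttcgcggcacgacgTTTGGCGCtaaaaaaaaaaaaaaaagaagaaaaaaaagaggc
E2F3: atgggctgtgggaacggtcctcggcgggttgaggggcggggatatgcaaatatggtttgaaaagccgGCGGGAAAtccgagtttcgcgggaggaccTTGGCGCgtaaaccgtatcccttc
E2F4: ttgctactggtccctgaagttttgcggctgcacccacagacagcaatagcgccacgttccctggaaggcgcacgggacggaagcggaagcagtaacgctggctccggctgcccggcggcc
CCNE1: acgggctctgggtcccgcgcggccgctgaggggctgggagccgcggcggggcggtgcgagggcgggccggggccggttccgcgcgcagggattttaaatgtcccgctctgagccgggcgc

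*E2F1* held 2 matches to the 8-letter motif, at bases -33 to -26 and -20 to -13 from the start site. *E2F2* held 1 match, at -42 to -35, and *E2F3* held 1 at -53 to -46. Across all 35116 promoters of the table, 3.31% held such a match in the 300 bases around the start site and 1.40% in the 120 bases before it. The same 4 forms without their first T, which are found wherever the longer forms are, stood in 13.0% of the 300-base windows. Among the other members they were found in *E2F6* and *E2F7* but not in *E2F4* or *CCNE1*. Sequence for 7 of the 10 members was matched, with 2 start sites for *E2F3*. The matches and the sequence given for *E2F3* are those of the first start site. The 300 bases around the second held 0 matches to the 8-letter motif and 0 to the shorter forms. No entry was used for *E2F5*, *E2F8* or *CCNE2*. A match is a string of letters and not a measured binding site, and its absence from a window says nothing about binding.

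**Figure D1:**
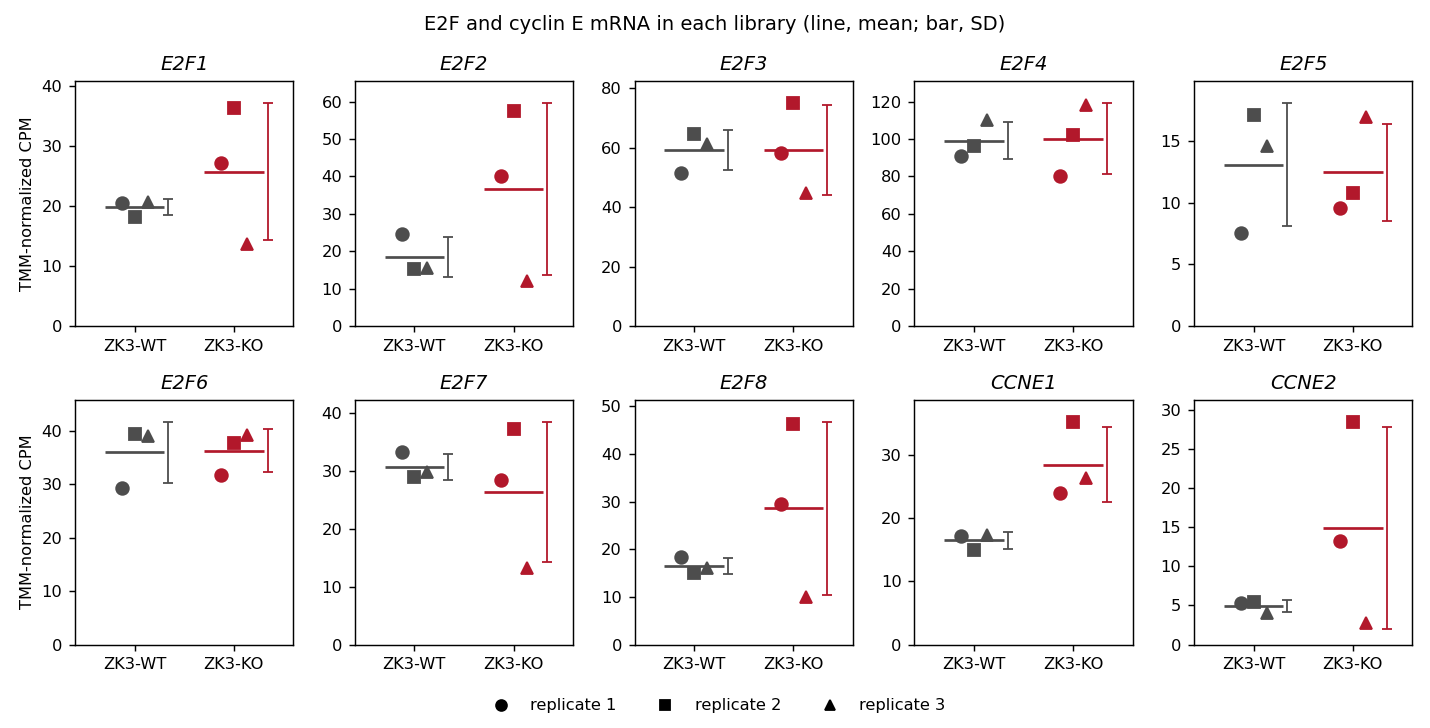
TMM-normalized CPM of each E2F and cyclin E gene in the 3 *ZK3*-WT and 3 *ZK3*-KO libraries, on a linear axis that starts at 0, with points for libraries and bars for the mean ± SD (n = 3). The groups do not overlap for *CCNE1*, and the *ZK3*-KO libraries of *CCNE2* spread from 2.80 to 28.5 CPM.

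*CCNE1*, at chr19:30302898-30315219 on the plus strand (GRCh37), encodes cyclin E1, the activating subunit of CDK2 at the entry to S phase. Its level was 17.1, 15.0 and 17.4 CPM in the *ZK3*-WT libraries against 23.9, 35.3 and 26.3 CPM in the *ZK3*-KO libraries. The lowest *ZK3*-KO library lay above the highest *ZK3*-WT library, and *ZK3*-KO replicate 3 lay between the others of its group, although in TPM it was the lowest of them. The means were 16.5 ± 1.33 CPM (SD, n = 3) and 28.5 ± 5.99 CPM (SD, n = 3), 1.73-fold apart with a 95% interval of 1.27 to 2.35. The log2 fold change was 0.79 (SE 0.19), which missed the threshold by edgeR's quasi-likelihood test (FDR 0.0903). Without *ZK3*-KO replicate 3 it was 0.85 (FDR 0.0201), and in DESeq2 it was 0.80 (FDR 0.00775). Over the 12 alternatives the log2 fold change stayed between 0.61 and 0.91 and the FDR between 0.00775 and 0.366, with 2 of them past the threshold. With the replicate number as a block the log2 fold change was 0.77 (FDR 0.0962).

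*CCNE2*, at chr8:95891998-95908906 on the minus strand, encodes cyclin E2, which also partners CDK2. Levels were 5.38, 5.41 and 4.05 CPM in *ZK3*-WT libraries against 13.3, 28.5 and 2.80 CPM in *ZK3*-KO libraries. Replicates 1 and 2 of *ZK3*-KO lay far above the parental libraries and replicate 3 lay below them, so the groups overlapped. As read counts these were 338, 379 and 283 against 857, 1976 and 173. The highest *ZK3*-KO library held 10.2 times the level of the lowest, a wider range than that of 98.3% of tested genes, while the *ZK3*-WT libraries ranged over 1.34-fold. The log2 fold change was 1.59 (SE 0.69), the largest of the 10, with a 95% interval of -0.01 to 3.19 and an FDR of 0.276 in edgeR's test. Leaving out *ZK3*-KO replicate 3 gave 2.09 (SE 0.30, FDR 0.00398), and leaving out replicate 2 gave 0.70, with FDR values up to 0.597 over the alternatives. On the opposite strand *CCNE2* overlaps *INTS8*, an Integrator subunit gene, and *NDUFAF6*, a complex I assembly gene. *INTS8* stood at 103, 89.9 and 90.0 CPM in *ZK3*-WT libraries against 109.7, 115 and 80.3 CPM in *ZK3*-KO libraries, the same order among the *ZK3*-KO libraries over a far smaller range. *NDUFAF6* stood at 15.5, 17.2 and 14.8 CPM against 14.6, 17.1 and 12.4 CPM, again highest in replicate 2 and lowest in replicate 3 of *ZK3*-KO. The library kit keeps strand but the counting's strand setting is not given in the sources used here, and any share of *INTS8* or *NDUFAF6* reads in the *CCNE2* count was not tested.

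*E2F1*, at chr20:32263283-32274191 on the minus strand, encodes the founding activator. Its *ZK3*-WT libraries held 20.5, 18.2 and 20.7 CPM, against 27.2, 36.3 and 13.6 CPM for *ZK3*-KO. Replicates 1 and 2 of *ZK3*-KO were above, and replicate 3 below, a tight parental group. Its log2 fold change was 0.38 (SE 0.32, FDR 0.585 in edgeR's test) with all libraries and 0.69 (SE 0.16, FDR 0.0262) without *ZK3*-KO replicate 3. Without *ZK3*-KO replicate 2 it was 0.045 (FDR 0.956, the highest over the alternatives).

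*E2F2*, at chr1:23832930-23857725 on the minus strand, encodes an activator with strong dependence on the cell cycle. The *ZK3*-WT libraries held 24.6, 15.3 and 15.6 CPM, against 40.2, 57.5 and 12.2 CPM for *ZK3*-KO. The groups overlapped through *ZK3*-KO replicate 3 alone, and the highest *ZK3*-KO library held 4.73 times the level of the lowest. Its log2 fold change was 0.99 (SE 0.51, FDR 0.353 in edgeR's test), and 1.41 (SE 0.23, FDR 0.00744) when that library was left out. Without *ZK3*-KO replicate 2 it was 0.50 (FDR 0.644), and the FDR reached 0.710 over the alternatives.

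*E2F3*, at chr6:20402110-20493945 on the plus strand, encodes the activator that is also made as a short form from an internal start site, and the count pools both forms. Levels were 51.5, 64.5 and 61.3 CPM in *ZK3*-WT libraries against 58.3, 75.0 and 44.8 CPM in *ZK3*-KO libraries. The *ZK3*-KO libraries lay on both sides of the parental ones and within them. The log2 fold change was 0.01 (SE 0.21) with a 95% interval of -0.48 to 0.50 (FDR 0.992 in edgeR's test), and its sign turned under other scalings (-0.066 with library totals alone and -0.024 with upper-quartile factors).

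The atypical repressors E2F7 and E2F8 are usually described as a pair. *E2F8*, at chr11:19245610-19263167 on the minus strand, stood at 18.3, 15.1 and 16.1 CPM in *ZK3*-WT libraries against 29.5, 46.3 and 10.0 CPM in *ZK3*-KO libraries. As for the activators *E2F1* and *E2F2*, replicates 1 and 2 were above the parental libraries and replicate 3 below. Its log2 fold change was 0.79 (SE 0.47, FDR 0.419 in edgeR's test), and 1.21 (SE 0.20, FDR 0.00735) without *ZK3*-KO replicate 3. Without *ZK3*-KO replicate 2 it was 0.26 (FDR 0.793, the highest over the alternatives). *E2F7*, at chr12:77415028-77459349 on the minus strand, stood at 33.2, 28.9 and 29.8 CPM in *ZK3*-WT libraries against 28.4, 37.3 and 13.3 CPM in *ZK3*-KO libraries. Replicate 3 of *ZK3*-KO was below all parental libraries, replicate 2 above them and replicate 1 just under them. Its log2 fold change was -0.22 (SE 0.34, FDR 0.777 in edgeR's test) with a 95% interval of -1.01 to 0.57, 0.11 (FDR 0.687) without *ZK3*-KO replicate 3 and -0.55 without replicate 2, with FDR values of 0.443 to 0.895 over the alternatives. The difference between *E2F7* and *E2F8* in their response was not tested.

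*E2F4*, at chr16:67226058-67232821 on the plus strand, encodes the main repressor E2F of resting cells, and was the most highly counted member. Its *ZK3*-WT libraries held 91.0, 96.2 and 109.9 CPM, against 80.3, 102 and 118 CPM for *ZK3*-KO. In CPM replicate 3 was the highest of the *ZK3*-KO libraries, in TPM replicate 2 was (98.9 against 92.2 TPM), and the groups overlapped. The log2 fold change was 0.02 (SE 0.18) with a 95% interval of -0.40 to 0.44 (FDR 0.973 in edgeR's test), and -0.074 with library totals alone. *E2F5*, at chr8:86089389-86129387 on the plus strand, encodes the other pocket-protein-bound repressor, and stood at 7.54, 17.2 and 14.6 CPM in *ZK3*-WT libraries against 9.61, 10.8 and 17.0 CPM in *ZK3*-KO libraries. Every *ZK3*-KO library lay within the parental range, and *ZK3*-KO replicate 3 was again the highest of its group. Its log2 fold change was -0.07 (SE 0.35) with a 95% interval of -0.88 to 0.73 (FDR 0.938 in edgeR's test). *E2F5* overlaps *RBIS* on the opposite strand, which held up to 3015 reads in a library. *RBIS* stood at 36.2, 29.5 and 33.3 CPM in *ZK3*-WT libraries against 39.5, 36.5 and 48.8 CPM in *ZK3*-KO libraries. In *ZK3*-KO it too was highest in replicate 3, but in *ZK3*-WT it was highest in replicate 1, where *E2F5* was lowest. Any share of *RBIS* reads in the *E2F5* count was not tested.

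*E2F6*, at chr2:11584501-11606303 on the minus strand, encodes the E2F that lacks the pocket-protein binding part and represses as a member of a Polycomb complex. The *ZK3*-WT libraries held 29.3, 39.4 and 39.1 CPM, against 31.6, 37.7 and 39.2 CPM for *ZK3*-KO. The *ZK3*-KO libraries lay within the parental range, and their highest held 1.24 times the level of their lowest, the narrowest *ZK3*-KO range of the 10. The log2 fold change was 0.01 (SE 0.17) with a 95% interval of -0.40 to 0.42 (FDR 0.982 in edgeR's test), and -0.075 with library totals alone. 3 processed copies of *E2F6* held 36 to 108 reads each in a library, and reads shared between them and *E2F6* were not tested.

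**Figure D2:**
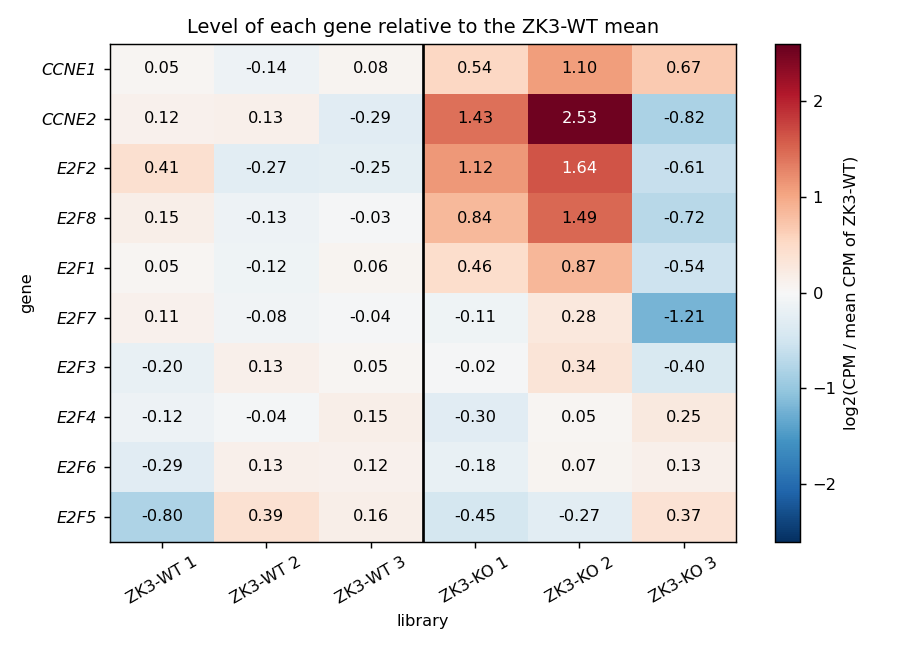
Log2 ratio of the CPM in each library to the mean of the 3 *ZK3*-WT libraries, for each E2F and cyclin E gene (rows) in the 6 libraries (columns). *ZK3*-KO replicate 2 reaches 2.53 for *CCNE2*, 1.64 for *E2F2* and 1.49 for *E2F8*, and replicate 3 stands at -0.82, -0.61 and -0.72 for the same genes but at 0.67 for *CCNE1*.

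*ZK3*-KO replicate 3 departed from the rest of its group by different amounts, and in different directions, from gene to gene. Relative to the mean of *ZK3*-KO replicates 1 and 2, its log2 level was -2.79 for *CCNE2*, -1.98 for *E2F2*, -1.88 for *E2F8*, -1.29 for *E2F7* and -1.20 for *E2F1*. It was -0.56 for *E2F3* and -0.14 for *CCNE1*, and it was positive for *E2F6* (0.18), *E2F4* (0.38) and *E2F5* (0.73). Only 0.702% of tested genes had a lower value than *CCNE2*. These differences are in CPM, and in TPM *E2F6* stood at 20.3, 24.2 and 20.2 in the *ZK3*-KO libraries, with replicate 3 not above the others.

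Without *ZK3*-KO replicate 3, *E2F1*, *E2F2*, *E2F8*, *CCNE1* and *CCNE2* rose in edgeR's test and the other 5 members did not pass, where 7.41% of 18872 tested genes were called higher and 15.1% in either direction. With all 6 libraries and the replicate number as a block, none of the 10 passed, as without the block, and 2.51% of tested genes did. With the block and without *ZK3*-KO replicate 3, an alternative added after seeing the data, *CCNE2* alone passed (log2 fold change 1.86, FDR 0.0454). *E2F8* (1.16, FDR 0.0787), *E2F2* (1.31, FDR 0.0865), *CCNE1* (0.87, FDR 0.0996) and *E2F1* (0.71, FDR 0.108) missed the threshold at log2 fold changes close to those without the block, where 0.795% of tested genes were called higher and 2.24% in either direction.

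**Figure D3:**
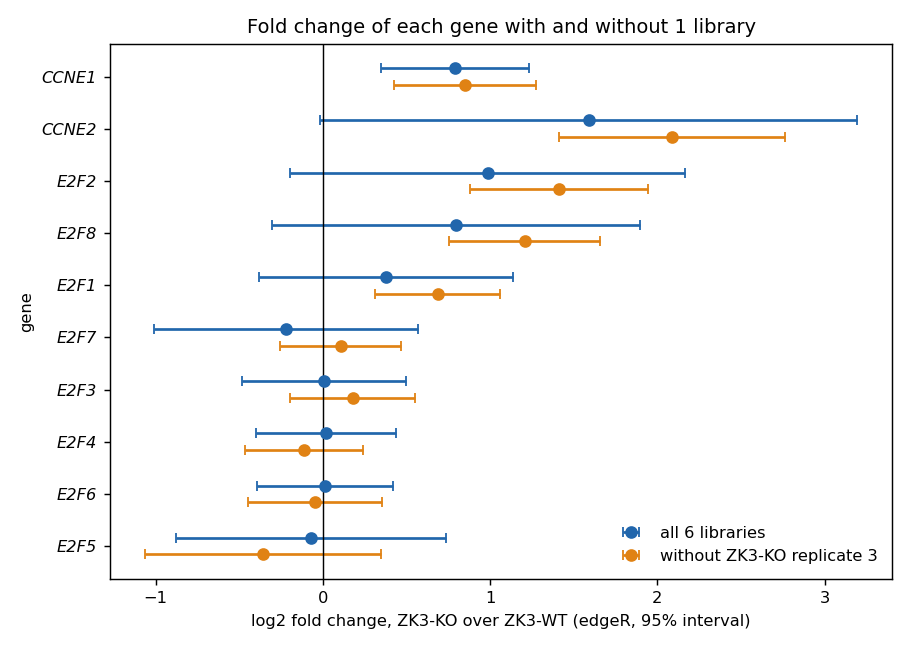
Log2 fold change of *ZK3*-KO over *ZK3*-WT for each E2F and cyclin E gene with its 95% interval from edgeR's quasi-likelihood fit, for all 6 libraries and for the 5 that exclude *ZK3*-KO replicate 3. With all libraries only the interval of *CCNE1* (0.35 to 1.23) lies above 0, and that of *CCNE2* runs from -0.01 to 3.19.

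Levels of different genes were compared per transcript length, as the authors' TPM values. In *ZK3*-WT cells *E2F4* stood first at 98.4 ± 9.51 TPM (SD, n = 3), above the highest library of any other member. *E2F3* (26.5 ± 3.66 TPM) and *E2F6* (23.4 ± 4.01 TPM) came next with overlapping libraries, and *CCNE1* (18.3 ± 1.07 TPM) overlapped *E2F6* but not *E2F1* (15.5 ± 0.768 TPM). *E2F5* (14.2 ± 5.62 TPM) overlapped *E2F1* and *E2F7* (11.3 ± 0.659 TPM). *E2F8* (9.57 ± 0.820 TPM) lay below *E2F7* without overlap, *E2F2* (7.92 ± 2.10 TPM) overlapped *E2F8*, and *CCNE2* (3.82 ± 0.626 TPM) was last and separate. In *ZK3*-KO cells *E2F4* was again first and separate (89.9 ± 10.4 TPM), *CCNE1* was second (29.4 ± 8.37 TPM) and *CCNE2* next to last (11.1 ± 9.93 TPM). Every pair of neighbours below *E2F4* in that order overlapped.

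The E2F genes together took 187, 214 and 220 TPM in *ZK3*-WT and 201, 259 and 164 TPM in *ZK3*-KO. Of these sums, the activators *E2F1*, *E2F2* and *E2F3* held 25.9, 23.8 and 23.0% in *ZK3*-WT and 32.2, 32.5 and 17.6% in *ZK3*-KO. The means were 24.2 ± 1.52% and 27.4 ± 8.52% (SD, n = 3; exact permutation test, two-sided, p = 0.4). *E2F4* and *E2F5* held 51.9, 54.7 and 56.3% in *ZK3*-WT and 44.2, 42.7 and 64.9% in *ZK3*-KO (54.3 ± 2.20% and 50.6 ± 12.4%; exact p = 0.7). For the activators, replicates 1 and 2 of *ZK3*-KO thus lay above the parental range and replicate 3 below it, and for *E2F4* and *E2F5* the reverse held. The E2F shares of a library are parts of the same sum, so these are not separate observations. *E2F7* and *E2F8* held 12.1, 9.28 and 9.25% against 13.5, 15.4 and 5.19% (exact p = 0.8), and *E2F6* held 10.1, 12.3 and 11.5% against 10.1, 9.37 and 12.3% (exact p = 0.8). Cyclin E2 took 17.9, 20.1 and 14.1% of the cyclin E TPM in *ZK3*-WT and 27.9, 35.6 and 7.09% in *ZK3*-KO (17.3 ± 3.03% and 23.6 ± 14.8%; exact p = 0.5). The adjusted p over these 5 comparisons was 0.8 for each, and 3 against 3 libraries cannot give a p below 0.1. Leaving out 1 library moved the difference in the activator share from 3.19 to between 0.640 (without *ZK3*-KO replicate 2) and 8.11 percentage points (without replicate 3), and that in the cyclin E2 share from 6.21 to between 0.164 and 14.4 (the same libraries).

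**Figure D4:**
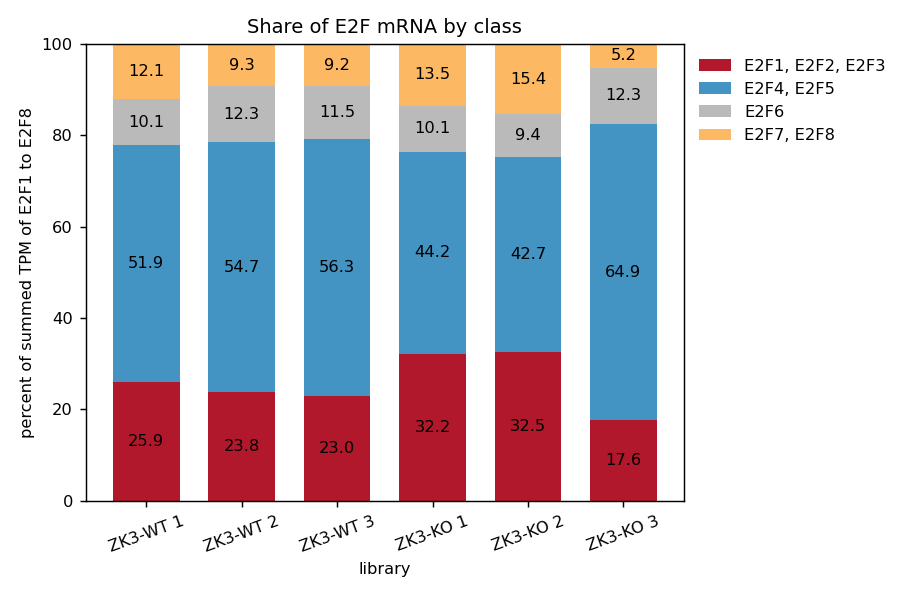
Percent of the summed TPM of *E2F1* to *E2F8* held by the activators, the canonical repressors *E2F4* and *E2F5*, *E2F6* and the atypical repressors, in each library (stacked bars from 0 to 100%). The activators hold 32.2 and 32.5% in *ZK3*-KO replicates 1 and 2, 17.6% in replicate 3 and 23.0 to 25.9% in the *ZK3*-WT libraries.

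Genes with the most similar profile were sought among 10785 genes whose log2 CPM averaged 3 or more, by the root mean square distance of centred log2 CPM over the 6 libraries. Since all libraries enter, this describes both the genotypes and *ZK3*-KO replicate 3. For *CCNE2* the nearest genes were *FAM111B* (0.186), *MCM10* (0.197) and *CLSPN* (0.239), where the median gene lay at 1.12. *MCM10* is a replication initiation factor and *CLSPN* encodes claspin, a replication checkpoint protein. For *E2F8* they were *UHRF1* (0.082), *ZWINT* (0.082) and *CHAF1A* (0.090), with a median gene at 0.725. *UHRF1* maintains DNA methylation, *ZWINT* is a kinetochore gene and *CHAF1A* encodes a subunit of the histone chaperone CAF-1. The nearest to *E2F1* were *OSBPL11* (0.070), *MIEF1* (0.081) and *CSE1L* (0.082), with a median gene at 0.478, and *CSE1L* encodes the export receptor of importin alpha. *CCNE1* had other neighbours, *MPDU1* (0.067), *ITPK1* (0.072) and *MGST1* (0.074), with a median gene at 0.476. *MPDU1* serves protein glycosylation, *ITPK1* encodes an inositol phosphate kinase and *MGST1* a microsomal glutathione transferase. The nearest of them, *MPDU1*, stood at 27.7, 24.5 and 26.1 CPM in *ZK3*-WT libraries against 36.9, 50.2 and 40.0 CPM in *ZK3*-KO libraries. Like *CCNE1*, it had replicate 3 between the others of its group. Any shift shared along the chromosome of a neighbour gene, such as that given below for chromosome 14, was not examined.

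The genes on which E2F and cyclin E act, and those that act on them, were read from fixed lists. Of 30 E2F targets of the G1/S transition, 29 had a log2 fold change above 0, where 51.7% of tested genes did. The edgeR test called 0 of them (DESeq2 also 0), with an unadjusted p under 0.05 for 3, where 18.4% of tested genes had one. Their median log2 fold change was 0.66, where that of all tested genes was 0.02. It was 0.27 without *ZK3*-KO replicate 2, 1.00 without *ZK3*-KO replicate 3 and 0.38 with limma on TPM. *PCNA*, the sliding clamp of DNA polymerase, stood at 119, 67.7 and 68.3 CPM in *ZK3*-WT libraries against 220.4, 319 and 70.6 CPM in *ZK3*-KO libraries (log2 fold change 1.26, FDR 0.248). *MSH6*, a mismatch repair gene, had 1.13 (FDR 0.261), and *BRCA1* had -0.03 (FDR 0.973). *EZH2*, the Polycomb methyltransferase, stood at 82.0, 75.3 and 86.8 CPM in *ZK3*-WT libraries against 100.8, 113 and 93.8 CPM in *ZK3*-KO libraries. In CPM its groups did not overlap (log2 fold change 0.33, FDR 0.271), an arrangement shared, higher in *ZK3*-KO, by 12.7% of tested genes. In TPM they did overlap, at 42.7, 49.7 and 61.5 against 56.3, 71.7 and 55.0. In 24 of the 30, *ZK3*-KO replicates 1 and 2 lay above and replicate 3 below every parental library, as for *CCNE2*, *E2F1*, *E2F2* and *E2F8*. This arrangement held for 6.79% of tested genes. Against the parental mean, the log2 levels of the list had medians of 0.77, 1.18 and -0.64 in the *ZK3*-KO libraries. Without replicate 3, 25 of the 30 rose, where 7.41% of tested genes were called higher. With the block in addition 0 passed, where 0.795% were called higher, and the median was 0.98. The summed level of 8 mitotic markers was also highest in *ZK3*-KO replicate 2 and lowest in replicate 3, at 2105, 1382 and 1450 CPM in *ZK3*-WT and 2233, 2493 and 1012 CPM in *ZK3*-KO. Of the 8 genes, 3 had *ZK3*-KO replicates 1 and 2 above and replicate 3 below every parental library, beside 6.79% of tested genes. All 8 had a log2 fold change above 0, where 51.7% of tested genes did. Of the 8, 0 passed and 0 had an unadjusted p under 0.05, where 18.4% of tested genes had one (DESeq2 called 0). They ran from 0.06 (*CENPF*, FDR 0.958) to 0.49, with *AURKA* at 0.46 (FDR 0.308), *CCNB1* at 0.46 (FDR 0.314) and *PLK1* at 0.39 (FDR 0.371). Their part in the results above was not tested.

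**Figure D5:**
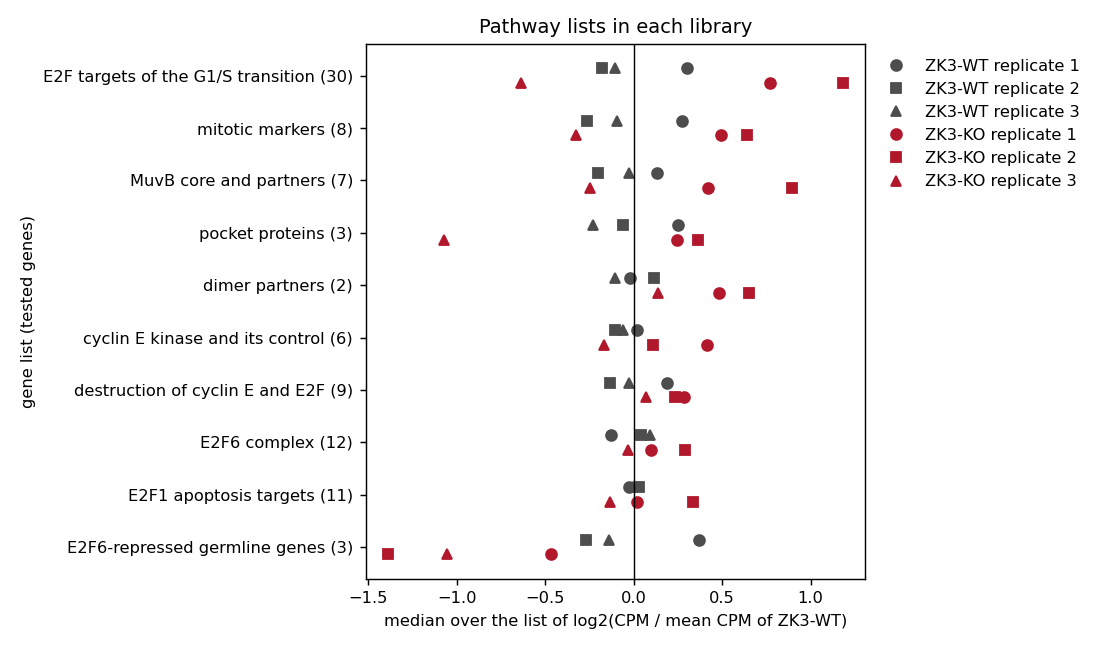
Median log2 ratio to the *ZK3*-WT mean over the tested genes of each pathway list, with 1 point for each library. For the 30 E2F targets of the G1/S transition the *ZK3*-KO replicates 1, 2 and 3 stand at 0.77, 1.18 and -0.64, and the *ZK3*-WT libraries between -0.18 and 0.30.

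Among the partners that set E2F activity, *TFDP2*, a DP subunit, stood at 96.4, 115 and 89.2 CPM in *ZK3*-WT libraries against 183, 151 and 163 CPM in *ZK3*-KO libraries. All *ZK3*-KO libraries lay above the *ZK3*-WT ones, an arrangement shared by 12.7% of tested genes. Its log2 fold change of 0.72 missed the threshold (FDR 0.0737 in edgeR's test). Without *ZK3*-KO replicate 3 the FDR was 0.0168, and over the alternatives it ran from 0.00237 to 0.324. *TFDP1*, the more common partner, had 0.20 (FDR 0.742), and *TFDP3* was not tested. *RB1* stood at 61.9, 58.4 and 54.7 CPM in *ZK3*-WT libraries against 69.1, 75.1 and 27.7 CPM in *ZK3*-KO libraries (log2 fold change -0.03, FDR 0.978). *RBL1*, the pocket protein that is itself an E2F target, had the same arrangement as *RB1* and *E2F1*, at 24.8, 19.7 and 17.3 CPM against 33.8, 41.4 and 7.83 CPM (0.43, FDR 0.717). *RBL2* had -0.47 (FDR 0.312). Of the 7 genes of the MuvB complex and its partners, 6 had a log2 fold change above 0, beside 51.7% of tested genes. The edgeR test called 1 of them, *LIN52*, higher, where it called 2.05% of tested genes in either direction. The *LIN52* product joins MuvB to the pocket proteins or to B-MYB. *LIN52* stood at 12.9, 10.9 and 13.7 CPM in *ZK3*-WT libraries against 28.8, 29.3 and 23.4 CPM in *ZK3*-KO libraries. It was among the 12.7% of tested genes higher in *ZK3*-KO without overlap. Its log2 fold change was 1.12 (SE 0.17, FDR 0.0254), and its FDR ran from 8.21e-07 to 0.154 over the 12 alternatives, 6 of them past the threshold. Leaving out any 1 library other than *ZK3*-KO replicate 3 ended the call. *LIN52* lies on chromosome 14, where the median of the log2 fold changes of 503 tested genes was 0.51, and the part of that shift in its value was not tested. *LIN9* (0.74, FDR 0.285), *MYBL2* (0.64, FDR 0.383) and *LIN54* (-0.05, FDR 0.955) did not pass.

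Of the 6 genes of the cyclin E kinase and its control, 4 had a log2 fold change above 0 and 0 passed (DESeq2 called 0). An unadjusted p under 0.05 was found for 2. Of all tested genes, 51.7% lay above 0 and 18.4% had such a p. *CDC25A*, the phosphatase that activates CDK2 and an E2F target, stood at 15.9, 17.1 and 18.9 CPM in *ZK3*-WT libraries against 31.3, 63.3 and 17.2 CPM in *ZK3*-KO libraries (log2 fold change 1.11, FDR 0.228 in edgeR's test). *CDKN1B*, which encodes the cyclin E-CDK2 inhibitor p27, stood at 43.7, 47.7 and 46.0 CPM in *ZK3*-WT libraries against 37.0, 33.3 and 39.6 CPM in *ZK3*-KO libraries. All *ZK3*-KO libraries lay below the parental ones, and its log2 fold change of -0.32 missed the threshold (FDR 0.268). The share of tested genes with that arrangement is not given here. *CDKN1A*, which encodes the inhibitor p21, stood at 209, 216 and 314 CPM against 339, 198 and 525 CPM, highest in the *ZK3*-KO replicate with the lowest *CCNE2* (0.53, FDR 0.473). *NPAT*, a CDK2 substrate that drives histone genes, had 0.10 (FDR 0.924). Of the 9 genes that direct destruction of cyclin E and E2F, 1 had an unadjusted p under 0.05, where 18.4% of tested genes did. All 9 had a log2 fold change above 0, beside 51.7% of tested genes, and 0 passed (DESeq2 called 0). They ran from *CUL3* (0.02, FDR 0.960) to 0.68 and included *SKP1* (0.52, FDR 0.187), *CCNF* (0.51, FDR 0.321) and *RBX1* (0.36, FDR 0.333).

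The level of *E2F6* itself lay within the parental range. Of the 12 genes of its Polycomb complex, 9 had a log2 fold change above 0, beside 51.7% of tested genes. Of the 12, 0 passed and 2 had an unadjusted p under 0.05, beside 18.4% of tested genes (DESeq2 called 0). *RYBP* had -0.43 (FDR 0.201), *MAX* 0.54 (FDR 0.267), *L3MBTL2* 0.39 (FDR 0.273) and *RNF2* 0.05 (FDR 0.903). Shifts along the chromosomes of these genes were not examined. The germline list held 5 genes taken as repressed by E2F6. It includes *TUBB3*, which is not restricted to the germline, as its level here shows. Of the 5, 3 were tested, all 3 with a log2 fold change below 0, and 0 passed (DESeq2 called 0). An unadjusted p under 0.05 was found for 2, beside 18.4% of tested genes. *SMC1B* (-1.61, FDR 0.153) had at most 0.477 CPM in a library and *STAG3* (-0.49, FDR 0.613) at most 1.27 CPM. *TUBB3* stood between 44.1 and 118 CPM over the libraries and had -0.61 (FDR 0.241). Of 11 apoptosis genes known as E2F1 targets, 6 had a log2 fold change above 0 and 0 passed in edgeR's test. An unadjusted p under 0.05 was found for 4, beside 18.4% of tested genes. DESeq2 called 2 higher and 1 lower, where it called 8.2% of tested genes. *PPP1R13B* had 0.73 (FDR 0.0532) and *SIVA1* 0.98 (FDR 0.0679), both on chromosome 14, *BCL2L11* had -0.51 (FDR 0.129) and *BBC3* -0.11 (FDR 0.936). The median log2 fold change was 0.43 for the MuvB list, 0.27 for the cyclin E kinase list and 0.29 for the destruction list. It was 0.19 for the E2F6 complex, 0.18 for the apoptosis genes and 0.35 for the mitotic markers, beside 0.02 for all tested genes. For the germline list it was -0.61, which is the value of *TUBB3*. Without *ZK3*-KO replicate 3, the edgeR test called 3 MuvB genes, 1 pocket protein gene (*RBL1*), 2 of the cyclin E kinase list, 3 of the destruction list, 5 mitotic markers and 2 apoptosis genes higher, 3 apoptosis genes lower, and 0 of the E2F6 complex and germline lists, where 7.41% of tested genes were called higher and 15.1% in either direction. With the block in addition, 1 MuvB gene and 0 genes of the other lists named here were called, where 2.24% of tested genes were.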

How the data were processed

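Total RNA of *ZK3*-WT and *ZK3*-KO cells was sequenced as 150 bp paired-end reads, and the submitters' processing notes name Bowtie2 2.2.5 and hg19 (GRCh37). The authors deposited whole read counts per gene, without normalization, which were the input of the tests. The authors also deposited FPKM values, which were not used, and TPM values, which were used for levels between genes and for 1 alternative. The methods name an Ensembl annotation, whereas the table lists NCBI Gene identifiers. Column names were matched to libraries through the sample descriptions. The columns zk3-ko and zk3-wt, whose names carry no number, belong to replicate 2 by the sample titles.

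Tests on the counts used edgeR 4.0.16 under R 4.3.3 (filterByExpr, TMM factors, quasi-likelihood test with genotype as the only factor, Benjamini-Hochberg adjustment over all tested genes, threshold 0.05). SD, fold ranges and levels are of TMM-normalized CPM. The design is 3 libraries against 3, and each p-value measures the spread between cultures of 1 parental and 1 cloned line. Shares were compared by the exact permutation test in scipy 1.17.1. Alternatives were scaling by upper-quartile factors or by library totals, DESeq2 1.42.0, every gene with at least 1 read, limma 3.58.1 on log2(TPM + 1), the replicate number as a block and each library left out. Promoter windows were taken from a RefSeq table and located in GRCh37 by exact match. Gene positions came from a GENCODE annotation of GRCh37.

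Deviations from the group means were correlated across genes between same-numbered libraries (0.294, 0.112 and 0.449 for replicates 1, 2 and 3). The replicate number was therefore fitted as a block, but only as an alternative. The main fit and the permutation tests took the libraries as unpaired. Among differently numbered libraries, *ZK3*-WT replicate 1 with *ZK3*-KO replicate 2 reached 0.209, above the value of replicate 2. What the numbers mark is not given in the sources used here. The 10 genes and the pathway lists were chosen with earlier results of these data known. Named genes were every member, *ZKSCAN3*, the up to 3 genes with the smallest FDR and the 1 with the largest in each list, any list gene past the threshold, and the 3 nearest profiles of *E2F1*, *E2F8*, *CCNE1* and *CCNE2*. *INTS8*, *NDUFAF6* and *RBIS* were named as overlapping genes, and *RB1* and *TFDP3* as members of short lists.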

Additional observations from a re-analysis of the deposited data

How the results depend on the processing

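The number of tested genes past an FDR of 0.05 was 376, and it was 1506 with DESeq2. Leaving out 1 library gave 49 (*ZK3*-WT replicate 2), 57 (*ZK3*-WT replicate 3), 67 (*ZK3*-WT replicate 1), 74 (*ZK3*-KO replicate 1), 158 (*ZK3*-KO replicate 2) and 2858 (*ZK3*-KO replicate 3) genes. Of the E2F and cyclin E genes, 0 passed with all libraries, 1 with DESeq2, and 0 to 5 when 1 library was left out, with 5 without *ZK3*-KO replicate 3 and 0 without any other. The replicate block changed no member's call with all 6 libraries (461 tested genes passed), and 1 member passed with the block when *ZK3*-KO replicate 3 was left out as well. The cause of these shifts was not tested.

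Over the 12 alternatives, 91 of 120 log2 fold changes of the members kept their direction and their side of the threshold, 6 came to pass it and 23 changed sign, all in *E2F3*, *E2F4*, *E2F5*, *E2F6* and *E2F7*, whose values lay near 0. *E2F3* was -0.066 with library totals, -0.024 with upper-quartile factors, -0.018 with the replicate block and -0.14 with limma on TPM. *E2F4* was -0.074, -0.0074 and -0.13 with library totals, upper-quartile factors and limma, and -0.039 with the block without *ZK3*-KO replicate 3, where *E2F7* was 0.079. *E2F6* was -0.075, -0.013 and -0.10 with totals, upper-quartile factors and limma. Leaving out each library moved *E2F3* between -0.20 and 0.18, *E2F4* between -0.11 and 0.16, *E2F5* between -0.36 and 0.17, *E2F6* between -0.12 and 0.11 and *E2F7* between -0.55 and 0.11.

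Of 588 values of the other 49 named genes, 518 kept direction and side, 34 came to pass the threshold, 6 lost it and 30 changed sign. With the block and without *ZK3*-KO replicate 3, *BRCA1* was 0.27, *LIN54* 0.24 and *RB1* 0.27. *CENPF* was -0.046 with the block and -0.17 with limma, and *NPAT* was -0.045 and -0.25. *CUL3* was -0.060 with library totals and -0.0075 with upper-quartile factors, and *RNF2* was -0.022 with totals and -0.077 with limma. With 1 library left out, the ranges were -0.88 to 0.28 for *BBC3*, -0.35 to 0.30 for *BRCA1*, -0.15 to 0.42 for *CENPF*, -0.035 to 0.071 for *CUL3*, -0.27 to 0.25 for *LIN54*, -0.012 to 0.69 for *MIEF1*, -0.18 to 0.46 for *NPAT*, -0.27 to 0.31 for *RB1*, -0.049 to 0.17 for *RNF2*, -0.14 to 0.45 for *TFDP1* and -0.29 to 0.086 for *ZKSCAN3*. The difference in share (*ZK3*-KO minus *ZK3*-WT, percentage points) ran from -10.8 to 0.281 for *E2F4* and *E2F5* and from -0.853 to 4.24 for *E2F7* and *E2F8*, and this last difference was -0.048 in CPM not scaled by length. The difference ran from 0.640 to 8.11 for the activators and from 0.164 to 14.4 for the cyclin E2 share. The share of tested genes with a log2 fold change above 0 was 51.7% with TMM and 37.8% with limma on TPM.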
